A study of Mus musculus with 10 samples.

Results

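The 10 genes described here encode the core of 2 linked forms of inflammatory cell death. They were chosen by symbol, as the rows named Nlrp3, Aim2, Nlrc4, Pycard, Casp1, Casp4, Casp8, Gsdmd, Ripk3 and Mlkl, and all 10 were found among the 48897 rows of each of 2 expression tables. One table held RPKM values (read counts corrected for the length of the gene and the size of the library) of prostate epithelium, and the other TPM values (length-scaled values brought to the same sum in every library) of Myc-CaP cells.

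An inflammasome forms when a sensor protein such as NLRP3, AIM2 or NLRC4 detects microbial or danger signals and, in most cases through the adaptor ASC (encoded by Pycard), activates caspase-1. Caspase-1 matures interleukin-1β and interleukin-18 and cleaves gasdermin D, whose fragment opens pores in the cell membrane and ends in pyroptosis, while caspase-11, the product of mouse Casp4, cleaves gasdermin D in answer to intracellular lipopolysaccharide. Caspase-8 restrains the other route, necroptosis, in which the kinase RIPK3 phosphorylates MLKL, which then breaks the membrane. These genes are known above all from macrophages and other myeloid cells, and several are also active in epithelia.

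The epithelium libraries were made from prostate cells of 3-month-old C57BL/6 mice sorted as EpCAM-positive and CD45-negative. The control group (A, B and C) and the group labelled Arid1a KO (A, B and C) held 3 libraries each. In the latter, Arid1a, whose product is a DNA-binding subunit of the BAF chromatin remodeller, was deleted through a Cre driven by the probasin promoter, which is active in prostate epithelium. The mice of both groups, controls included, also carried another engineered deletion of the same prostate-specific kind, so the controls are not wild type. Myc-CaP is a prostate cancer line of FVB background from a mouse with a c-Myc transgene, and it gave 2 libraries with an empty vector (EV) and 2 with Arid1a knockout by a lentiviral guide RNA. The study's methods describe 3 mice per epithelium group. The labels do not say whether the Myc-CaP libraries of a group came from separate cultures, so p-values there measure the spread between these libraries, which may be technical.

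The libraries held 28735776 to 36242551 reads in genes in the epithelium and 18409956 to 20674467 in Myc-CaP. Arid1a RNA fell in Myc-CaP, from 60.7 ± 0.355 TPM with EV to 39.9 ± 0.581 TPM in Arid1a KO (SD, n = 2 each; limma adjusted p = 0.0102). In the epithelium Arid1a was at 25.4 ± 3.13 RPKM in the control and 30.2 ± 1.23 RPKM in the libraries labelled Arid1a KO (SD, n = 3 each; limma adjusted p = 0.0540), so its RNA level is no check of those labels. A gene-level value also counts reads from exons outside a deleted part. Epcam, the sorting marker, was measured at 304 ± 40.9 RPKM in the control epithelium but was listed at 0 in 3 of the 4 Myc-CaP libraries.

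Promoter sequence is shown for 3 members, the one with the largest rise in the epithelium (Nlrp3), the one with the smallest adjusted p (Mlkl) and the one with the most matches to a searched motif (Casp4). The series title names NF-kB, and the upstream windows of all members were therefore searched on both strands for the NF-kB consensus, the interferon-stimulated response element (ISRE), the GAS element TTCNNNGAA and the AP-1 element TGANTCA. RefSeq windows of 250 bases before a start site (GRCm38.p6) were given for 9 of the 10 members, 11 windows in all, and Gsdmd had none. Each run below reads 5′ to 3′ on the strand of the gene and ends at the base before the start site, and capitals mark matches to the NF-kB consensus.
Nlrp3 (chr11:59541319-59541568, plus strand): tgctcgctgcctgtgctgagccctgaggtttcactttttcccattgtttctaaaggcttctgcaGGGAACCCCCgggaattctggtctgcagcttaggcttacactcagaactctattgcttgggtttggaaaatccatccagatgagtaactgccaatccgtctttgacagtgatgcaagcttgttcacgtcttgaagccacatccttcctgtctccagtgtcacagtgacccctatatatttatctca
Casp4 (chr9:5308599-5308848, plus strand): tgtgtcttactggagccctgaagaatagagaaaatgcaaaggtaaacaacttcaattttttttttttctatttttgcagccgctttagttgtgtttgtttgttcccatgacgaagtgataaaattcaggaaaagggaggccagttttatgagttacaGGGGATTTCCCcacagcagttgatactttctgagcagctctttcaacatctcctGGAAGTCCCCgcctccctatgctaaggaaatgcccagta
Mlkl (chr8:111338206-111338455, minus strand): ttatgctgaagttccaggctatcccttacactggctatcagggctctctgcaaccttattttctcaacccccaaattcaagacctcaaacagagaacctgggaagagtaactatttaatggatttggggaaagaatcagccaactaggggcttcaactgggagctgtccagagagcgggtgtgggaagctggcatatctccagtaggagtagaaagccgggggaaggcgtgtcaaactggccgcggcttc

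The NF-kB consensus was matched in 3 of the 11 member windows, which belong to 2 genes, Nlrp3 (1 of its 2 windows) and Casp4 (both of its overlapping windows). Of all 32851 RefSeq windows of the same length, 7.25% held it. In Nlrp3 the match begins 186 bases before the start site. In Casp4 a pair of overlapping matches begins 93 and 92 bases before the start site printed and a further match begins 39 bases before it. None of the 11 member windows held the ISRE, GAS or AP-1 letters, which were present in 2.98%, 7.02% and 6.75% of all windows. A match is a description of letters, and its absence says only that those letters are not in the window.

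In the sorted epithelium, 8 of the 10 genes were called higher in Arid1a KO libraries than in the control, and none was called lower (limma on log2(RPKM + 1), Benjamini-Hochberg adjusted p under 0.05 over 16275 genes tested). The 8 included the 3 sensors, the 3 caspases and both necroptosis genes, while the adaptor Pycard and the pore former Gsdmd did not pass the test. In all 8 the groups did not overlap. Differences were common in this table, with 57.1% of all genes tested called in either direction, 27.5% called higher and 32.3% without overlap and higher in the Arid1a KO libraries. For the 10 members the log2 fold change had a median of 0.69, and for all genes tested it was -0.028. When the libraries were rescaled to the same sum, the median of all genes moved to 0.11 and the share of higher calls among all calls from 48.1% to 64.6%, and Gsdmd became a ninth member called higher.

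**Figure D1:**
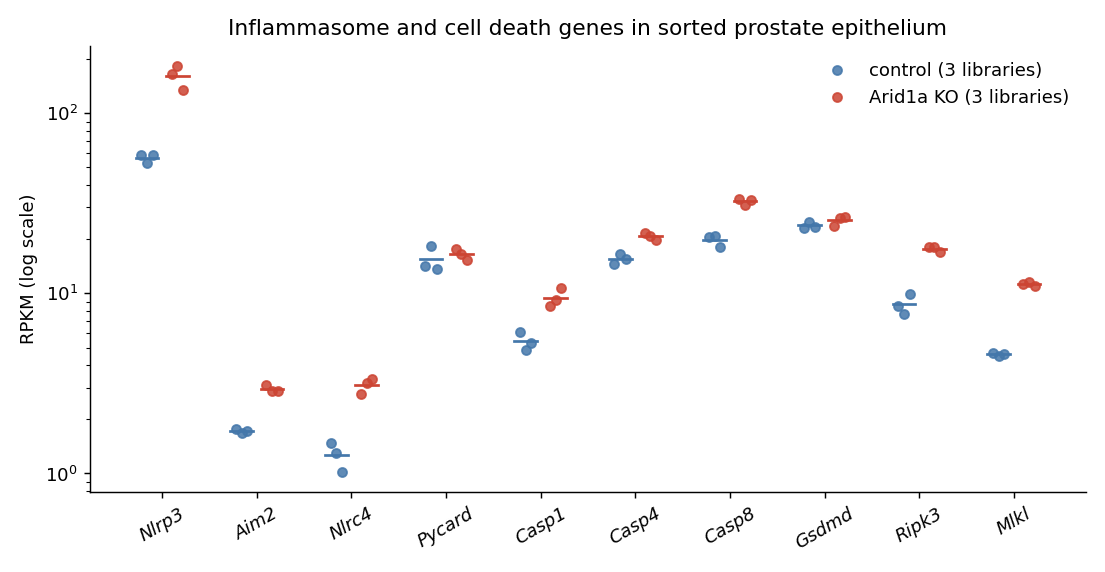
Level of each of the 10 genes in the epithelium, in RPKM on a log axis. Each point is 1 library (3 control, 3 labelled Arid1a KO) and each bar the group mean; the groups overlap for Pycard and Gsdmd alone, and Nlrp3 is the highest gene in both groups.

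Nlrp3, the sensor of membrane damage and ion flux, showed the largest change and the highest level of the 10 genes. Its values were 58.5, 53.1 and 58.5 RPKM in control A, B and C, and 166, 183 and 135 RPKM in the Arid1a KO libraries A, B and C. Every Arid1a KO library was thus more than double every control, and library C was the lowest of the 3. The means were 56.7 ± 3.10 and 161 ± 24.2 RPKM (SD, n = 3 each), a ratio of 2.84, with a log2 fold change of 1.48 (SE 0.113, limma adjusted p = 6.15e-05). Between 7066 and 22158 reads stood behind each value, and no other annotated gene overlaps Nlrp3, which lies on chromosome 11 from 59541568 to 59566956 on the plus strand (GRCm38, GENCODE M21, here and for the other genes).

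The other sensors among the 10 were expressed at far lower levels. Aim2, the sensor of cytosolic DNA (chromosome 1, 173350879 to 173466040, plus strand), was at 1.76, 1.68 and 1.72 RPKM in the control and 3.08, 2.87 and 2.87 RPKM in Arid1a KO. Nlrc4, which is activated by bacterial flagellin and secretion system proteins through NAIP receptors (chromosome 17, 74425438 to 74459142, minus strand), was at 1.48, 1.30 and 1.02 RPKM in the control and 2.77, 3.19 and 3.37 RPKM in Arid1a KO. Both genes were low in every control library and higher in every Arid1a KO library. The log2 fold change was 0.54 for Aim2 (SE 0.0747, limma adjusted p = 0.000797) and 0.86 for Nlrc4 (SE 0.107, limma adjusted p = 0.000458). On this scale, with 1 added to each value, the changes of such low genes are understated, and the ratios of the means were 1.71 and 2.45. Counting was stated to use strand, and an annotated gene on the same strand, CT033749.1, overlaps Nlrc4. How reads in a shared part were assigned or dropped is not stated.

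Pycard, the adaptor that joins sensors to caspase-1 (chromosome 7, 127989708 to 127993867, minus strand), was at 14.2, 18.4 and 13.7 RPKM in the control and 17.6, 16.4 and 15.3 RPKM in Arid1a KO. Control B lay above all 3 Arid1a KO libraries and the groups overlapped. The log2 fold change was 0.095, with a 95% interval from -0.17 to 0.36 (limma adjusted p = 0.496). Without control B it was 0.22 with an adjusted p of 0.0386, so the call on Pycard rests on that library.

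The inflammatory caspases lie next to each other on chromosome 9, Casp1 at 5298517 to 5307265 and Casp4 at 5308828 to 5336783, both on the plus strand. Casp1, which cleaves pro-interleukin-1β, was at 6.11, 4.84 and 5.32 RPKM in the control and 8.47, 9.16 and 10.7 RPKM in Arid1a KO, a log2 fold change of 0.70 (SE 0.108, limma adjusted p = 0.00122). Casp4, the caspase that binds lipopolysaccharide directly, was at 14.6, 16.6 and 15.6 RPKM in the control and 21.7, 20.8 and 19.9 RPKM in Arid1a KO, a log2 fold change of 0.39 (SE 0.0686, limma adjusted p = 0.0023). Neither gene overlapped between groups, and the ratio of means was 1.74 for Casp1 and 1.33 for Casp4, the smallest ratio among the 8 genes called.

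Casp8, which starts apoptosis and holds necroptosis in check, lies on chromosome 1 from 58795374 to 58847503 on the plus strand. It was at 20.5, 20.9 and 18.1 RPKM in the control and 33.3, 31.1 and 32.9 RPKM in Arid1a KO. The 3 Arid1a KO values lay close together, at a ratio of 1.63 to the control mean (log2 fold change 0.68, SE 0.0724, limma adjusted p = 0.000229). The annotated gene Gm37760 overlaps Casp8 on the same strand.

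Gsdmd, the pore former cleaved by caspase-1 and caspase-11 (chromosome 15, 75862327 to 75867408, plus strand), was at 23.2, 25.0 and 23.4 RPKM in the control and 23.8, 26.3 and 26.5 RPKM in Arid1a KO. Arid1a KO library A lay within the range of the controls. The log2 fold change of 0.091 had a 95% interval from -0.067 to 0.25 (limma adjusted p = 0.280). It was 0.26 (adjusted p = 0.0108) after rescaling to the same sum and 0.27 (adjusted p = 0.0106) after removal of the trend with gene length, so the call on Gsdmd depends on the scaling.

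Both necroptosis genes stood higher in every Arid1a KO library. Ripk3 (chromosome 14, 55784995 to 55788865, minus strand) was at 8.51, 7.65 and 9.96 RPKM in the control and 18.02, 17.99 and 16.95 RPKM in Arid1a KO, a log2 fold change of 0.95 (SE 0.0932, limma adjusted p = 0.000167). Mlkl (chromosome 8, 111311797 to 111338177, minus strand) was at 4.66, 4.48 and 4.61 RPKM in the control and 11.3, 11.6 and 11.0 RPKM in Arid1a KO, a log2 fold change of 1.14 (SE 0.0616, limma adjusted p = 1.66e-05). The replicates of Mlkl were tight, with an SD of 0.0918 RPKM in the control and 0.258 RPKM in Arid1a KO, and its ratio of means was 2.46 against 2.03 for Ripk3.

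**Figure D2:**
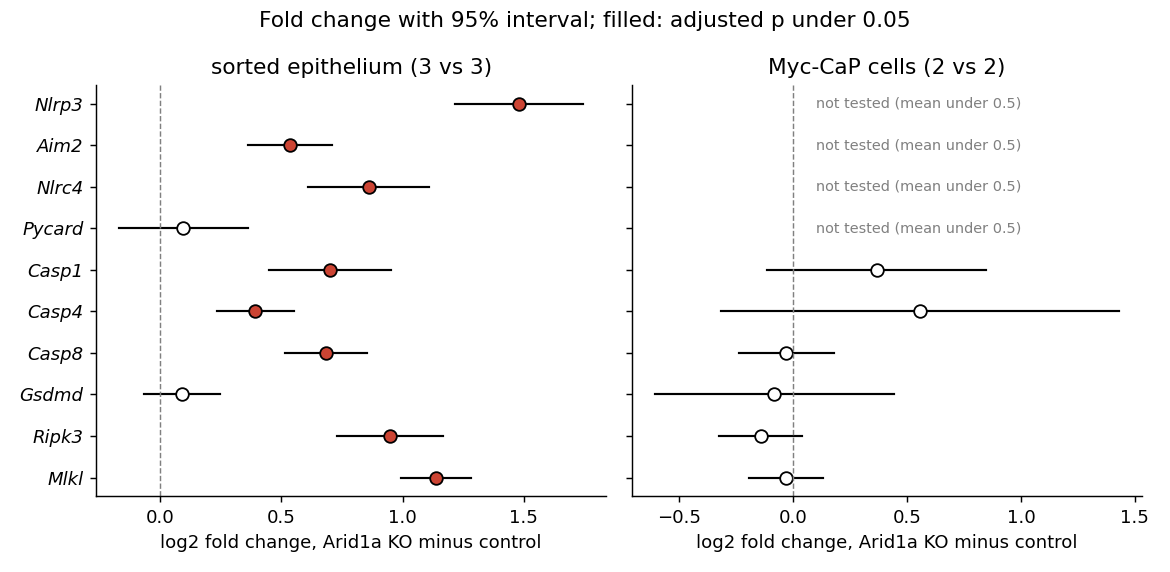
Log2 fold change (Arid1a KO minus control) of each gene with its 95% interval from limma, in the epithelium (left, 3 against 3 libraries) and in Myc-CaP cells (right, 2 against 2); the horizontal scales differ. Filled points passed an adjusted p of 0.05: 8 of 10 in the epithelium, from 0.39 for Casp4 to 1.48 for Nlrp3, and 0 of 6 tested in Myc-CaP.

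By level in RPKM, the control epithelium ran from Nlrp3 at 56.7 through Gsdmd, Casp8, Casp4, Pycard, Ripk3, Casp1, Mlkl and Aim2 to Nlrc4 at 1.27. Neighbours in this order did not overlap in their replicate ranges except Casp4 and Pycard. In the Arid1a KO libraries Casp8 stood above Gsdmd, Ripk3 was level with Pycard, Mlkl stood above Casp1, and Nlrc4 was level with Aim2. Levels compared between genes depend on the gene lengths behind the deposited values, which, read from the steps between values, ran from 0.448 (Casp4) to 2.85 (Aim2) times the GENCODE exon lengths.

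Markers of other cell types were present in both epithelium groups, and several lists of them moved with the members. For comparison, 27.5% of all genes tested were called higher and 29.6% lower. Ptprc, which encodes CD45, was at 30.3, 26.0 and 29.5 RPKM in the control and 56.2, 58.1 and 57.6 RPKM in Arid1a KO (log2 fold change 0.98, SE 0.0713, limma adjusted p = 5.36e-05). Of 8 leukocyte markers, 6 were called higher and 1, Cd52, lower, and their summed level was 824 to 848 RPKM in the control and 975 to 1063 RPKM in Arid1a KO (479 to 508 and 815 to 897 RPKM without Cd52). All 10 macrophage markers were called higher, with sums of 2712 to 3121 RPKM and 4941 to 5669 RPKM. Of 10 neutrophil markers, 8 were tested, 4 were higher and 1, Camp, lower, while S100a8, S100a9 and Retnlg were not called. The neutrophil sums were 421 to 579.5 and 766 to 1013 RPKM, but without Ltf (89.8 and 401 RPKM) they were 339 to 475 and 384 to 632 RPKM and overlapped. Of 5 B cell markers 4 were higher, with sums of 125 to 140.0 and 429.6 to 751 RPKM that were mostly Ighm and came to 8.70 to 10.3 and 10.7 to 20.01 RPKM without it. No marker on these 4 lists was at 0 in all 6 libraries. The part of these cells in the result was not tested, and in bulk RNA a larger number of cells of a type cannot be told apart from more RNA per cell.

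T cell markers were higher for 4 of 7 (sums 29.4 to 35.2 and 41.8 to 47.7 RPKM), endothelial markers for 1 of 4 (26.0 to 35.1 and 37.5 to 47.8 RPKM), and fibroblast markers were lower for 3 of 6 (1683 to 2456 and 1401 to 1971 RPKM). The endothelial share called higher, 25%, was near the 27.5% over all genes tested, of which 29.6% were lower. The 7 epithelial markers were divided: Krt5 and Krt14, keratins of basal cells, were higher, while Krt18 and Epcam were lower. Calls in either direction made up 57.1% of them, the same share as over all genes tested. Their sums were 2394 to 2936 RPKM in the control and 3254 to 3599 RPKM in Arid1a KO, without overlap. Epcam was at 304 ± 40.9 RPKM in the control and 201 ± 21.5 RPKM in Arid1a KO (SD, n = 3 each). All 5 seminal vesicle secretory genes were lower, with sums of 18205 to 20587.5 RPKM in the control and 623 to 1573 RPKM in Arid1a KO. The part of these differences in the members' values was not tested either.

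**Figure D3:**
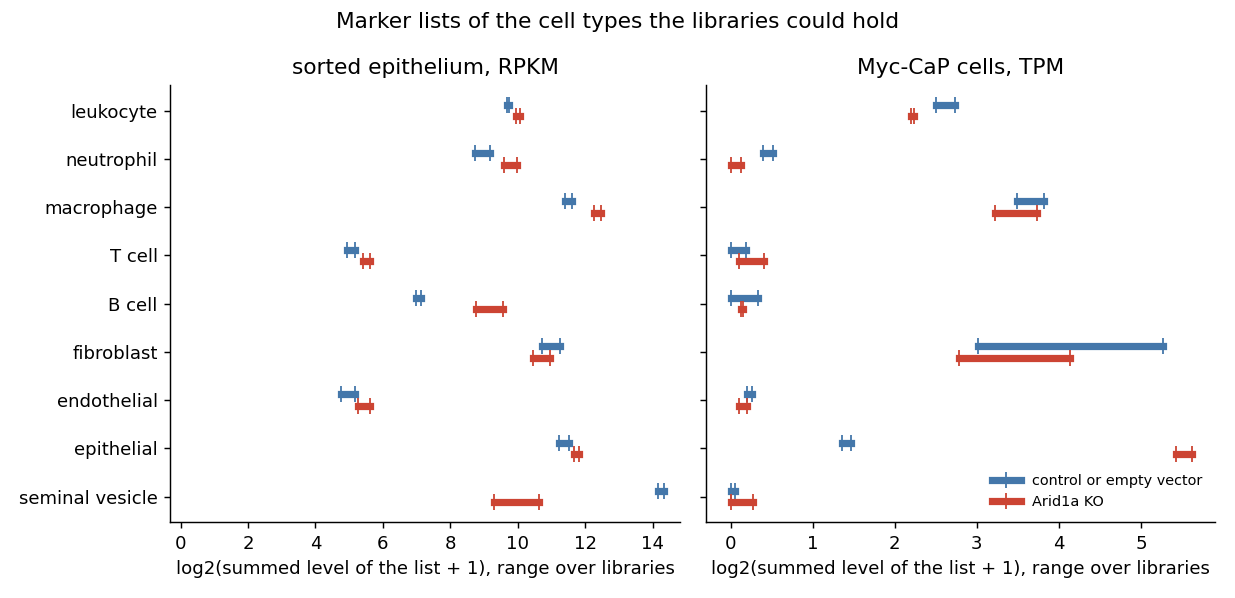
Range over libraries of the summed level of each marker list, as log2(sum + 1), in the epithelium (left, RPKM) and in Myc-CaP cells (right, TPM); the horizontal scales differ. In the epithelium the macrophage sums do not overlap between groups, and in Myc-CaP cells the neutrophil, T cell, B cell, endothelial and seminal vesicle sums all lie under 1 TPM.

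As a description chosen after the values were seen, each member was divided by Ptprc within its library. Nlrp3 stood at 198 RPKM per 100 RPKM of Ptprc in the control and 281 in Arid1a KO, a ratio of 1.42, and Mlkl at 16.1 and 19.7, a ratio of 1.23, both without overlap. Ripk3 (30.4 and 30.8), Casp1 (18.9 and 16.5) and Nlrc4 (4.44 and 5.42) overlapped between groups. The remaining 5 genes were lower per unit of Ptprc without overlap, from a ratio of 0.853 for Aim2 to 0.525 for Pycard. Divided by the summed macrophage list, Nlrp3 (ratio 1.57) and Mlkl (ratio 1.37) were again higher without overlap. Pycard, Casp4, Casp8 and Gsdmd were lower, from a ratio of 0.594 to 0.909, and the other 4 genes overlapped. Divided by the summed leukocyte list, 8 genes were higher without overlap, Pycard overlapped and Gsdmd was lower, but that sum includes Cd52, its only marker called lower (344 RPKM in the control and 161 RPKM in Arid1a KO). How many members stood higher thus depended on the divisor. The same division was not made for all genes, so these counts have no share over all genes beside them. As Ptprc itself rose (log2 fold change 0.98), a gene without change would stand lower per unit of it. Such ratios show unequal change of the members and the marker, and not which of them moved.

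In Myc-CaP cells, none of the 10 genes was called (limma on log2(TPM + 1), 13974 genes tested). Only 6 of them reached the mean of 0.5 TPM needed for the test, and 0 of these 6 had an unadjusted p under 0.05. A fit of the recovered reads with voom also called 0. Over all genes tested, 6.43% were called in either direction, 4.54% were called higher, and 22.1% had an unadjusted p under 0.05. Each group held 2 libraries. Whether the response of a gene differed between the epithelium and Myc-CaP cells was not tested, since the tables were scaled separately.

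The 3 genes of the necroptosis route had the highest levels of the 10, and none was called between the groups. Mlkl was at 66.7 and 71.6 TPM with EV and 67.1 and 68.3 TPM in Arid1a KO. Casp8 was at 28.0 and 30.7 TPM with EV and 27.7 and 29.7 TPM in Arid1a KO. In both genes the groups overlapped, and the 95% interval of the log2 fold change ran from -0.19 to 0.13 for Mlkl and from -0.24 to 0.18 for Casp8. Ripk3 was at 27.8 and 29.4 TPM with EV and 25.4 and 26.2 TPM in Arid1a KO, so both Arid1a KO libraries lay below both EV libraries, with a log2 fold change of -0.14 (95% interval -0.33 to 0.039, limma adjusted p = 0.329).

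The pyroptosis genes had few reads in this line. Gsdmd had 23 to 33 reads per library, at 1.81 and 1.997 TPM with EV and 1.38 and 2.16 TPM in Arid1a KO (log2 fold change -0.082, 95% interval -0.61 to 0.44). Casp1 had 10 to 18 reads, at 0.753 and 0.857 TPM with EV and 1.44 and 1.22 TPM in Arid1a KO, higher in both Arid1a KO libraries but with an interval from -0.11 to 0.85 (limma adjusted p = 0.339). Casp4 passed the filter only through Arid1a KO library 1, with 1.32 TPM (16 reads) against 0.359 TPM (4 reads) in library 2 and 0.0777 and 0.353 TPM with EV (1 and 4 reads).

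The remaining 4 genes were not tested. Nlrp3 had 0 reads in both EV libraries and 2 and 1 reads in the Arid1a KO libraries, and no fold is given, since a count of 0 allows up to 3 reads. Nlrc4 had 0 to 1 read per library. Pycard had 5 and 4 reads with EV and 2 and 0 in Arid1a KO. Aim2 had 5 and 4 reads with EV and 12 and 11 in Arid1a KO, 0.0647 and 0.0589 against 0.165 and 0.164 TPM, a ratio of means of 2.66 that was not tested. No difference in Nlrp3, Nlrc4 or Pycard was detectable at this depth. Most leukocyte markers were near 0 in the same libraries, with Ptprc at 0 in 3 of 4, and 8 leukocyte markers summing to 3.58 to 5.62 TPM, of which most was Cd52. In all 4 libraries, 6 of 10 neutrophil markers and 3 of 10 macrophage markers (C1qa, C1qc and Cd163) were at 0. The 10 macrophage markers still summed to 8.29 to 13.1 TPM, of which most was Cd14 at 6.70 to 10.2 TPM.

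**Figure D4:**
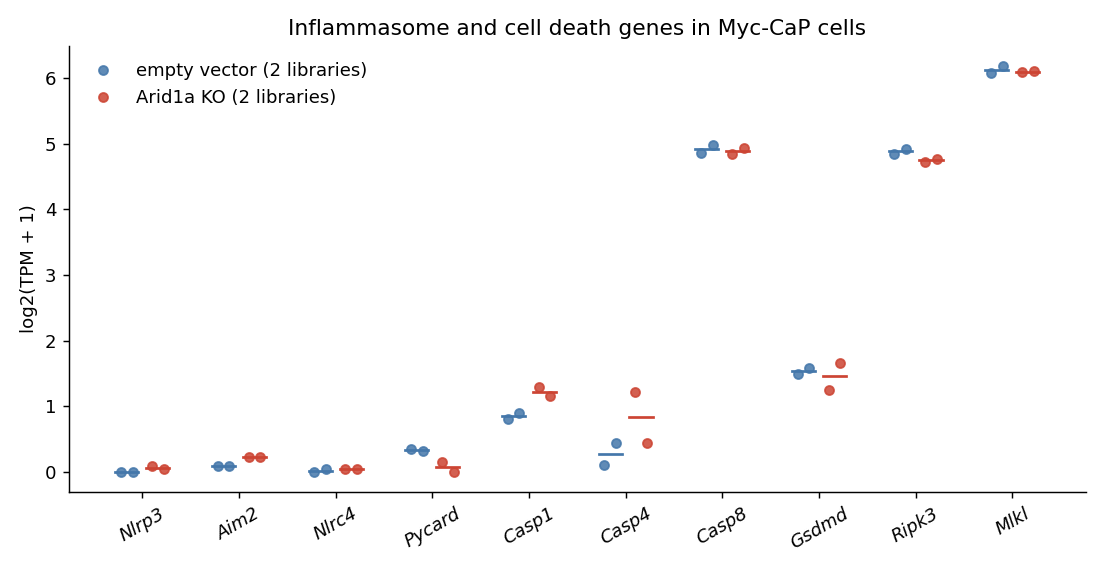
Level of each of the 10 genes in Myc-CaP cells, as log2(TPM + 1), with 2 libraries per group and bars at the group means. Mlkl, Casp8 and Ripk3 lie between 25.4 and 71.6 TPM in every library, and the other 7 genes lie at or under 2.16 TPM.

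By level in TPM, both Myc-CaP groups ran from Mlkl through Casp8 and Ripk3 to Gsdmd and Casp1, with the other 5 genes below 1 TPM on average. Among the 5 genes named, Casp8 and Ripk3 overlapped in range with EV. In Arid1a KO, Gsdmd and Casp1 overlapped, as did Casp1 and Casp4. Casp1 itself averaged 0.805 TPM with EV. Mlkl, the highest of the 10 in Myc-CaP, was among the 3 lowest in the control epithelium, whereas Nlrp3, the highest in the epithelium, was the one without a read in the EV libraries.

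Among 65 further genes of these pathways, 57 were tested in the epithelium, where 27.5% of all genes tested were called higher and 29.6% lower. Of the 57, 30 were called higher and 8 lower, at a median log2 fold change of 0.21. Most of the higher calls were on 2 lists, that of sensors with their regulators and that of cytokines. Of 21 other sensors and regulators tested, 16 were higher and 2 lower (median 0.45). Not all of these genes encode sensors: Dpp8, Dpp9, Nek7 and P2rx7 were among the higher calls and Txnip among the lower. Ifi202b, a DNA-binding protein related to AIM2, was at 0.696, 1.47 and 0.732 RPKM in the control and 15.3, 17.1 and 16.1 RPKM in Arid1a KO, the largest rise on the list (log2 fold change 3.15, SE 0.147, limma adjusted p = 9.80e-06). Ifi203, of the same family, rose from 5.25 ± 1.13 to 12.4 ± 1.12 RPKM (log2 fold change 1.11, SE 0.140). Nlrp10, an NLR protein without a leucine-rich repeat, fell from 33.5 ± 0.770 to 9.23 ± 3.46 RPKM (log2 fold change -1.80, SE 0.202). The Ifi20x and Naip genes are families of close copies, between which reads may have been divided unevenly.

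Of 7 interleukin-1 family cytokines and their antagonists, 6 were called higher and 0 lower, with a median of 0.98. Over all genes tested, 27.5% were called higher. Il1a, which needs no caspase-1 for its activity, rose from 14.7 ± 0.639 to 67.7 ± 5.13 RPKM (log2 fold change 2.12, SE 0.0730). Il1b, the main substrate of caspase-1, was at 257, 284 and 254 RPKM in the control and 573, 674 and 507 RPKM in Arid1a KO (log2 fold change 1.13, SE 0.116). The receptor antagonist Il1rn rose with the agonists, from 69.6 ± 1.51 to 240.5 ± 23.0 RPKM (log2 fold change 1.77, SE 0.0819).

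Of the 17 partners of caspase-8 and of necroptosis, 7 were called higher and 2 lower, with a median of 0.18. The called genes were 52.9% of this list, near the 57.1% called over all genes tested. After rescaling to the same sum, 11 partners were higher and 1 lower with a median of 0.34, and without Arid1a KO library B 4 were higher. Higher calls over all genes tested numbered 4471, against 6028 after that rescaling and 3758 without that library. Cflar, which encodes the caspase-8 regulator c-FLIP, rose from 8.77 ± 0.930 to 18.2 ± 0.837 RPKM (log2 fold change 0.98, SE 0.0848). Zbp1, a nucleic acid sensor that engages RIPK3, rose from 27.4 ± 1.17 to 45.9 ± 2.94 RPKM, and Xiap, an inhibitor of caspases, from 3.90 ± 0.509 to 7.06 ± 0.279 RPKM. Ripk1, the kinase upstream of RIPK3, was at 12.5 RPKM in the control and 14.2 RPKM in Arid1a KO and did not pass the test. Fadd and Traf2 were the 2 called lower.

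Of 12 genes tested on the list of other executioners, 4 were called lower and 1, Ninj1, higher. Over all genes tested, 29.6% were lower and 27.5% higher. The 4 include Serpinb1a, which encodes a protease inhibitor and not an executioner. Gsdma, a gasdermin of surface epithelia, was at 14.3, 14.7 and 15.4 RPKM in the control and 0.836, 1.11 and 1.65 RPKM in Arid1a KO (log2 fold change -2.86, SE 0.132). Serpinb1a, an inhibitor of neutrophil proteases, fell from 31.2 ± 2.07 to 15.4 ± 2.04 RPKM and Casp6 from 26.6 ± 1.46 to 18.4 ± 1.88 RPKM. Gsdmc2, Gsdmc3 and Gsdmc4, close copies of each other, stood at 78.1, 60.5 and 20.3 RPKM in the control and did not pass the test. The list's median was -0.086, and 0.069 after rescaling to the same sum, with 2 higher and 4 lower calls. The median of all genes tested was -0.028, and 0.11 after that rescaling.

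In Myc-CaP cells 36 of the 65 genes were tested, and over all genes tested there 4.54% were called higher. Of the 36, 6 (16.7%) were called, all higher. They were Ifi203 (1.95 ± 0.0551 to 5.09 ± 0.461 TPM), Ifi204 (13.3 ± 1.07 to 25.4 ± 3.69 TPM), the redox protein gene Txnip (129 ± 2.04 to 182 ± 1.65 TPM), Zbp1 (3.13 ± 1.54 to 16.6 ± 0.0515 TPM), the TNF receptor gene Tnfrsf1a (55.9 ± 2.93 to 76.1 ± 4.98 TPM) and Il33 (2.45 ± 0.577 to 11.7 ± 0.812 TPM; SD, n = 2 each). The log2 fold changes ran from 0.44 for Tnfrsf1a to 2.14 for Zbp1, and the median over the 36 was 0.065. Il1a, Il1b and Il1rn lay under 0.5 TPM on average and were not tested. The count fell to between 0 and 1 when any 1 of the 4 libraries was left out.

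Interferon-stimulated genes, a class to which Zbp1 and the Ifi20x genes are also known to belong, were set beside the members. In the epithelium 11 of 16 were called higher and 1, Irf1, lower, with a median of 0.44 (15 and 0 after rescaling to the same sum). Over all genes tested there, 27.5% were called higher and 29.6% lower, and higher calls rose from 4471 to 6028 with that rescaling. In Myc-CaP cells 14 of 16 were called higher and 0 lower, with a median of 1.23, beside 4.54% called higher over all genes tested. That count was 6 without either EV library and 0 without either Arid1a KO library. Ifit2 and Irf1 were the 2 not called there. None of the 10 members was called in the same libraries, but only 6 of them were tested. Of these, Gsdmd, Casp1 and Casp4 had at most 33 reads per library, so the 2 sets are not alike in depth.

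**Figure D5:**
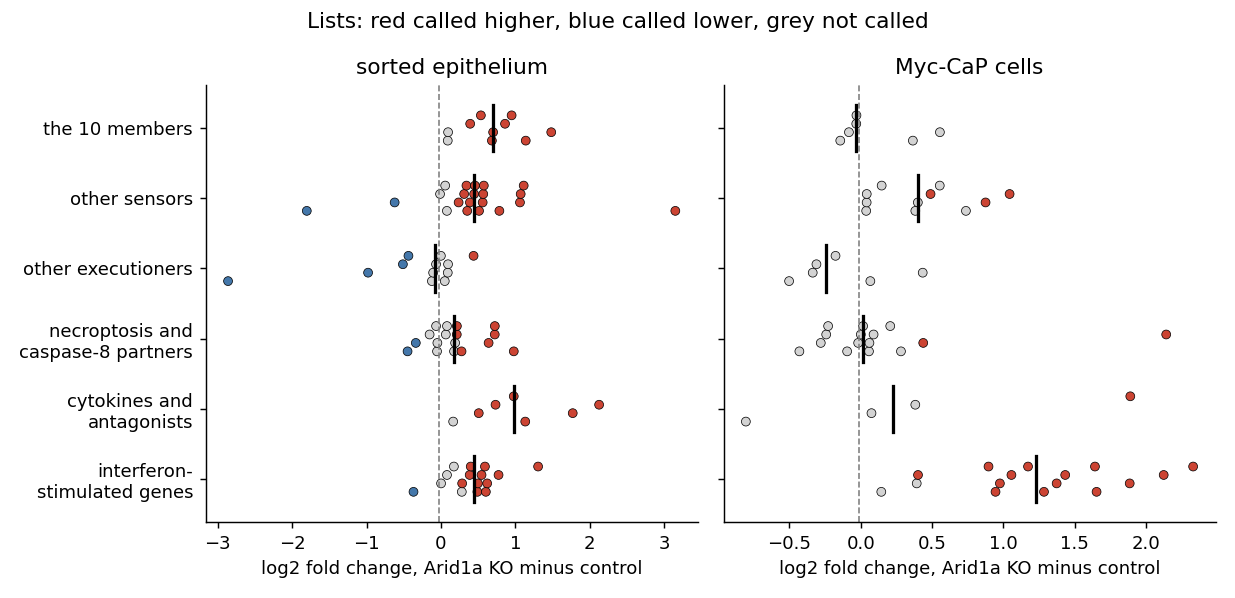
Log2 fold change (Arid1a KO minus control) of each gene tested on the lists, in the epithelium (left) and Myc-CaP cells (right); the horizontal scales differ. Black bars are list medians, 0.69 for the 10 members in the epithelium and -0.030 in Myc-CaP, and the dashed line is the median of all genes tested.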

How the data were processed

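RNA-seq of 10 mouse libraries was read from 2 tables, 1 per system. Per the labels, the authors processed the reads with HISAT2, HTSeq and DESeq2 on mm10, whereas the study's methods name TopHat2 and strand-specific HTSeq-count, and the aligner is therefore uncertain. The authors deposited RPKM values for the epithelium and TPM values for Myc-CaP. The gene lengths they used are not given in the sources used here.

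Whole reads were recovered from the steps between values, for 100% of 30303 epithelium and 20763 Myc-CaP rows with values above 0 in at least 2 libraries (tolerance 0.002 reads). Values were transformed to log2(value + 1), rows averaging 0.5 or more were kept, and each table was fitted alone with limma 3.58.1 (lmFit, eBayes with trend; R 4.3.3), two-sided, with Benjamini-Hochberg adjustment over the table and calls at an adjusted p under 0.05. With reads, voom was added after seeing the data. The test was checked on simulated data.

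Groups came from the genotype labels. The members and lists were chosen with earlier results of these data known. All 10 members are named, and from each further list, in each table, the 3 called genes with the largest change and no overlap; other names were chosen after their values were seen. Lists are described by counts and medians, with no set test. Same-letter epithelium libraries did not deviate together (correlations 0.041, 0.0094 and -0.057). Alternatives were a pseudocount of 0.1, no filter, a mean of at least 5, rescaling to the same sum, quantile normalization, eBayes without a trend, removal of a length trend, a replicate block and leaving out each library. An engineered allele shared by the mice of both groups is not reported here.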

Additional observations from a re-analysis of the deposited data

Results flagged for a closer look

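Ripk3 had log2 fold changes of opposite sign in the 2 systems without overlap of the groups in either, and it is listed for that reason. Its log2 fold change was 0.95 in the epithelium and -0.14 in Myc-CaP cells. In Myc-CaP cells Ripk3 was not called and the interval ran from -0.33 to 0.039, so a fall there is not established. A lack of overlap between groups of 2 libraries is not a test. Txnip encodes a redox protein that can bind NLRP3. It also had opposite signs without overlap, but with a call in each system, at -0.62 in the epithelium and 0.49 in Myc-CaP cells. The difference between the systems was not tested for either gene. Groups of 3 and 2 libraries are too small for a test of single outlying libraries.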

How the results depend on the processing

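In the epithelium, the 8 members called kept their direction and their call under all 8 alternatives to the processing in which they could be tested, under each library left out and with voom on the recovered reads, with log2 fold changes of 1.39 to 1.66 for Nlrp3 and 0.35 to 0.56 for Casp4. A mean of at least 5 left Aim2 and Nlrc4 untested. Among the 2 not called, Pycard ranged from 0.022 to 0.22 over single libraries left out (0.22 and called without control B), and Gsdmd was called at 0.26 after rescaling to the same sum and at 0.27 after removal of the length trend, whose cause was not tested. In Myc-CaP cells 0 members were called under every alternative. Over single libraries left out, the log2 fold change there ran from -0.093 to 0.034 for Casp8, from -0.29 to 0.12 for Gsdmd and from -0.081 to 0.020 for Mlkl, so none of these 3 has a stable direction. The Myc-CaP count of 6 further pathway genes became 2 with no filter on low values, 2 with eBayes without a trend, 13 with voom, and 0 to 1 with 1 library left out, where the lone library of a group is assumed to vary like the others.

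The labels tie Myc-CaP libraries of the same number by that number alone, and do not say whether they shared a culture or run. Their deviations correlated at 0.195, and the 2 EV libraries correlated best with their own number. With 2 libraries per group, this match follows from the sign of the correlation. With a replicate block, 16 further pathway genes and 0 members were called in Myc-CaP cells. In the epithelium the replicate block called 8 members and 36 further pathway genes, and 1 of 3 control libraries correlated best with its own letter. Over all genes, the Myc-CaP calls numbered 899, against 2771 with the replicate block, 1587 with voom, 358 with no filter, 451 with eBayes without a trend, and 0 to 53 with 1 library left out. Depth limits 7 members in Myc-CaP, which had at most 33 reads per library.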
